A study of Saccharomyces cerevisiae with 6 samples.

Results

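A set of phospholipid genes grouped around the yeast factors Ino2 and Ino4 was followed in yeast cells carrying the soybean gene GmbHLHm1. These are 10 genes, INO1, ITR1, HNM1, CHO1, PSD1, CHO2, OPI3, PIS1, CKI1 and OPI1, of 5449 tested, each chosen by its symbol in the array's annotation. Every one of the 10 had 1 probe set, so no choice between probe sets was needed. GmbHLHm1, also named SAT1, encodes a basic helix-loop-helix (bHLH) protein. The 3 cultures of the GmbHLHm1 group held it on the plasmid pYES3, behind a promoter that galactose switches on, and the 3 cultures of the other group held empty pYES3. Both groups had the same host, strain 26972c, an ammonium transport mutant with the mep1-1 allele, a deleted MEP2, an intact MEP3 and a uracil requirement (ura-). Both were grown first on 2% glucose with 0.1% proline, as a starter for 24 h and then for 2 days. They were then moved to 2% galactose and 1 mM ammonium, given as 0.5 mM ammonium sulfate, for 12 h before harvest. The temperature given for all 6 samples is 28 °C. The labels do not say how many transformants were used, nor whether the medium held inositol or choline.

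As background, Ino2 and Ino4 are bHLH proteins that bind DNA as a pair, at an element found before many genes of phospholipid synthesis. Opi1 holds the pair back when inositol is plentiful. It is kept at the endoplasmic reticulum by phosphatidic acid and Scs2 while inositol is scarce, and it moves to the nucleus when phosphatidic acid is used up. INO1 is the gene known for the widest range under this control and most of the others respond less, while PIS1 is known to be transcribed largely without regard to inositol. Phosphatidic acid is turned into CDP-diacylglycerol, from which phosphatidylserine, phosphatidylethanolamine, phosphatidylcholine and phosphatidylinositol are made. A separate route, the Kennedy pathway, makes phosphatidylcholine and phosphatidylethanolamine from choline, ethanolamine and diacylglycerol.

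Values are log2 intensities from the Affymetrix Yeast Genome 2.0 array, and a change is the mean of the GmbHLHm1 arrays minus the mean of the empty vector arrays on that scale. A gene was called changed at an adjusted p under 0.05 (limma's moderated test, two-sided, Benjamini-Hochberg adjustment over all 5449 genes). By that rule 659 genes changed, 12.1% of those tested, with 406 higher (7.45%) and 253 lower (4.64%). The split depended on scaling: it was 331 higher and 332 lower after quantile normalization, and 343 higher and 310 lower after median centring. The median change over all tested genes was 0.02. The background level of an array was the 95th percentile of 1746 probe sets whose gene identifiers are not in the S. cerevisiae gene table, and all 10 genes exceeded it on each of the 6 arrays. The deleted MEP2 was under it on each of them, in both groups. Yet the test called MEP2 lower in GmbHLHm1 cells (-0.40 ± 0.10, SE; adjusted p = 0.0433), so a call can arise below background. The log2 background level was 4.54, 4.60 and 4.57 on GmbHLHm1 arrays 1, 2 and 3. It was 4.75, 4.72 and 4.68 on empty vector arrays 1, 2 and 3. The cause of these differences was not tested. URA3, often used as a selection marker, was higher in GmbHLHm1 cells by 1.35 ± 0.22 (SE; adjusted p = 0.0105). The 3 arrays per group limit the precision, and the labels do not say whether each replicate had a starter culture of its own, so the spread behind each p-value is that between these 6 samples and may be partly technical.

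Of the 10 genes 3 changed: INO1 and OPI3 fell and CHO2 rose. The other 7 did not pass the test, and none of the 10 changed by 2-fold. The 3 called genes are 30% of the set, beside 12.1% of all tested genes. The set was chosen with earlier results of these data known, and 1 of the 10 was called without any 1 empty vector array. For the 3 called genes the groups had no overlapping values, 30% of the set beside 33.2% of all tested genes. The median change of the 10 was -0.08, beside 0.02 for all genes, and the median size of change regardless of direction was 0.10 for the 10 and 0.09 for all genes. A total of 7 genes had changes below 0 and 3 had changes above 0.

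**Figure D1:**
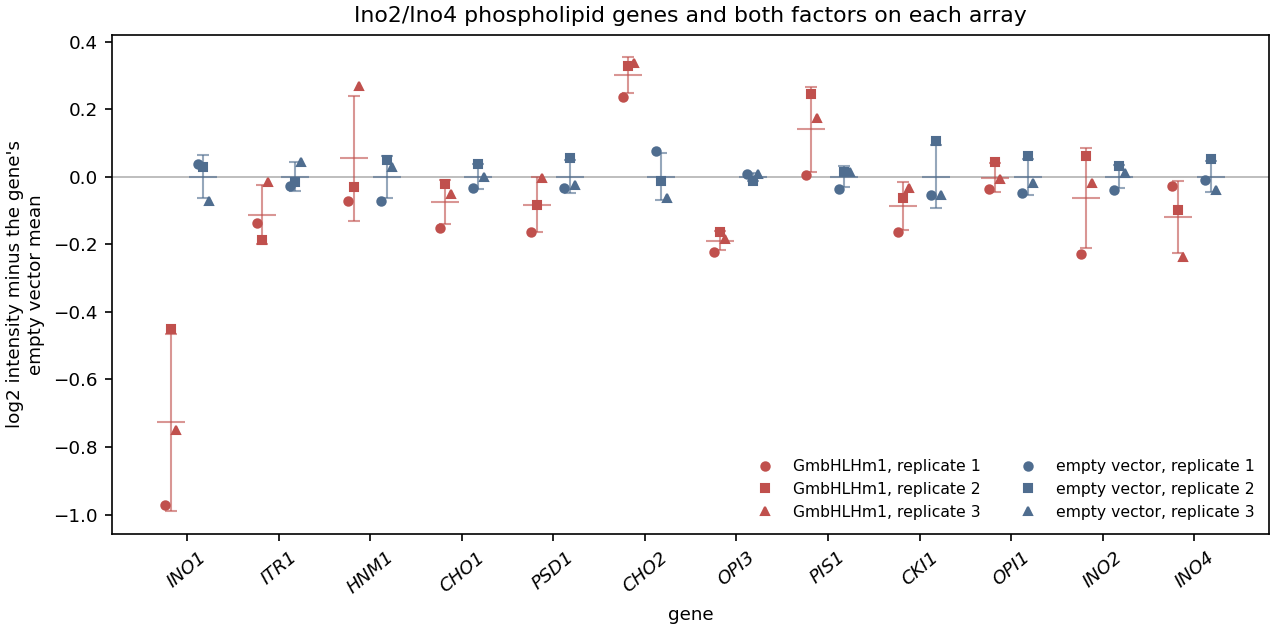
Log2 intensity of the 10 genes and of INO2 and INO4 on each of the 6 arrays, minus that gene's empty vector mean; points are arrays (the marker shape gives the replicate), horizontal marks are group means and bars are ± 1 SD (n = 3). INO1 lies far below its empty vector values in GmbHLHm1 cells (change -0.73), CHO2 lies above them (0.30) and OPI3 a little below them with little spread (-0.19).

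INO1 encodes inositol-3-phosphate synthase, the enzyme that makes inositol from glucose 6-phosphate. Its log2 intensity was 10.17, 10.69 and 10.39 in GmbHLHm1 replicates 1, 2 and 3, against 11.18, 11.17 and 11.07 in empty vector replicates 1, 2 and 3. All 3 GmbHLHm1 values lay below the lowest empty vector value, and they were spread more widely. The mean was 10.41 ± 0.26 in GmbHLHm1 cells and 11.14 ± 0.06 in empty vector cells (SD, n = 3 each). INO1 thus fell by 0.73 ± 0.12 (SE) on the log2 scale, a fold of 0.604 with a 95% interval of 0.494 to 0.739 (adjusted p = 0.0117). Only 0.422% of the tested genes had a change as low or lower. The change lay between -0.86 and -0.60 when any 1 array was left out, and the adjusted p exceeded the threshold without empty vector replicate 1 (0.0599) and stood at 0.049994 without empty vector replicate 2.

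ITR1 encodes the main inositol transporter of the plasma membrane, the other way for a cell to gain inositol. It had 12.11, 12.06 and 12.23 in GmbHLHm1 cells against 12.22, 12.23 and 12.29 in empty vector cells, and the highest GmbHLHm1 value lay within the range of the empty vector values. The change was -0.11 ± 0.06 (SE; adjusted p = 0.268), with a 95% interval of -0.25 to 0.02. HNM1 encodes the transporter for choline and ethanolamine. It had 10.60, 10.64 and 10.94 in GmbHLHm1 cells against 10.60, 10.72 and 10.70 in empty vector cells. Its groups overlapped, with replicate 3 of GmbHLHm1 above all other arrays, and its change of 0.05 ± 0.09 (SE; adjusted p = 0.760) turned to -0.05 without that array.

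Within each array the ratio of INO1 to ITR1 was lower in GmbHLHm1 cells by 0.62 log2 units. With the empty vector mean set to 0, this ratio was -0.84, -0.27 and -0.74 in the GmbHLHm1 arrays and 0.07, 0.05 and -0.12 in the empty vector arrays. The groups did not overlap, as INO1 alone did not, and the share of other gene pairs without overlap was not computed. A two-sided exact permutation test over the 6 arrays gave p = 0.1, the smallest that 3 against 3 allows. It was 1 of 4 ratios between pairs of these genes, all chosen after the values were seen, and the exact permutation p was 0.1 for each of the 4, before and after Benjamini-Hochberg adjustment.

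Next in order come the genes that carry CDP-diacylglycerol to phosphatidylcholine. CHO1 encodes phosphatidylserine synthase, the first step. It had 11.69, 11.82 and 11.79 in GmbHLHm1 cells against 11.81, 11.88 and 11.84 in empty vector cells. The groups overlapped, and the change was -0.07 ± 0.05 (SE; adjusted p = 0.407). PSD1 encodes the mitochondrial phosphatidylserine decarboxylase, which gives phosphatidylethanolamine. It had 9.43, 9.51 and 9.59 in GmbHLHm1 cells against 9.56, 9.65 and 9.57 in empty vector cells, with overlap through GmbHLHm1 replicate 3. Its change was -0.08 ± 0.06 (SE; adjusted p = 0.406).

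CHO2 encodes the methyltransferase that adds the first methyl group to phosphatidylethanolamine. It had 11.73, 11.82 and 11.83 in GmbHLHm1 cells against 11.57, 11.48 and 11.43 in empty vector cells. Every GmbHLHm1 value lay above every empty vector value. CHO2 averaged 11.79 ± 0.05 in GmbHLHm1 cells and 11.49 ± 0.07 in empty vector cells (SD, n = 3 each), and rose by 0.30 ± 0.05 (SE) on the log2 scale, a fold of 1.23 with a 95% interval of 1.13 to 1.35 (adjusted p = 0.0150). Without empty vector replicate 2 or 3 the adjusted p was 0.0663 or 0.0689.

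OPI3 encodes the methyltransferase for the 2 methylations that follow and complete phosphatidylcholine. It had 13.77, 13.83 and 13.81 in GmbHLHm1 cells against 14.00, 13.98 and 14.00 in empty vector cells. The gap was small, but the arrays of each group lay close together, with SDs of 0.03 for GmbHLHm1 and 0.01 for the empty vector. OPI3 fell by 0.19 ± 0.04 (SE) on the log2 scale, a fold of 0.877 with a 95% interval of 0.819 to 0.938 (adjusted p = 0.0290). The call depended on the arrays kept: the adjusted p was 0.126, 0.0969 and 0.115 without empty vector replicate 1, 2 and 3, and 0.0645 without GmbHLHm1 replicate 3. It was 0.108 when all probe sets of the array were fitted and adjusted together.

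The 2 methyltransferase genes, whose products act one after the other on the same lipid, thus moved in opposite directions. The ratio of CHO2 to OPI3 within an array, with the empty vector mean set to 0, was 0.46, 0.50 and 0.51 in GmbHLHm1 cells against 0.07, 0 and -0.06 in empty vector cells. The difference was 0.49 log2 units, a fold of 1.41, with SDs of 0.03 in GmbHLHm1 cells and 0.07 in empty vector cells. Its exact permutation test gave p = 0.1, two-sided, again the smallest possible. That outcome was fixed beforehand, since CHO2 was higher and OPI3 lower on these arrays without overlap. The ratio therefore adds no support beyond the calls of the 2 genes. The genes that supply S-adenosylmethionine, the methyl donor of both enzymes, were listed beside them. None of the 5 (SAM1, SAM2, SAH1, ADO1 and MET6) passed the test, and their median change was -0.09. MET6, for methionine synthase, had the smallest p of the list, with a change of -0.21 ± 0.10 (SE; adjusted p = 0.223).

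**Figure D2:**
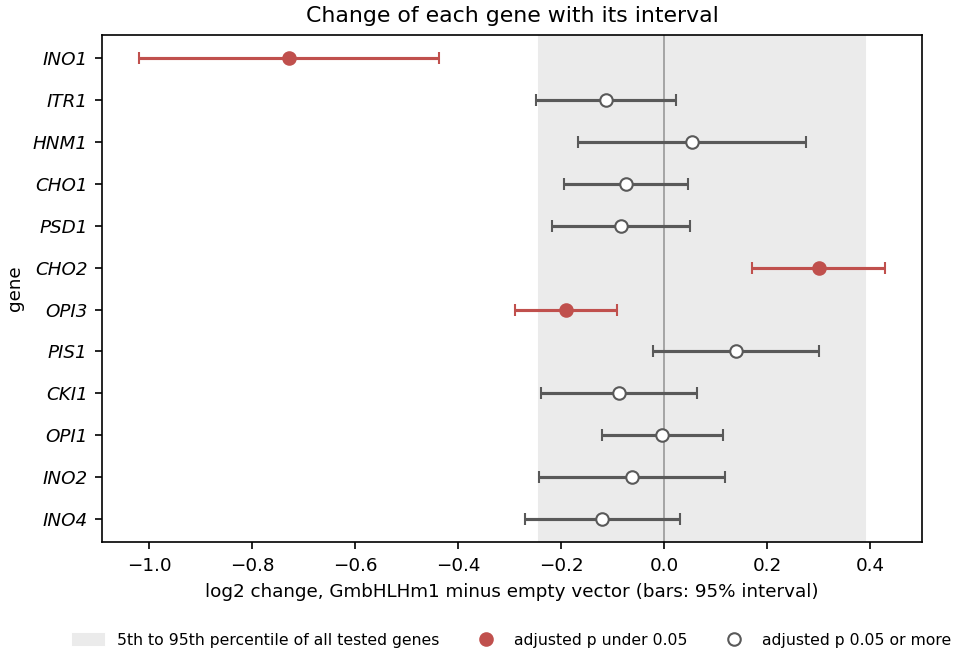
Log2 change (GmbHLHm1 minus empty vector) of each gene with its 95% interval; filled points passed the test, and the shaded band spans the 5th to 95th percentile of the changes of all tested genes (-0.24 to 0.39). INO1 alone lies outside the band; CHO2 and OPI3 lie inside it with intervals that leave out 0, and the intervals of the other genes include 0.

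PIS1 encodes phosphatidylinositol synthase, which joins inositol to CDP-diacylglycerol. It had 11.83, 12.07 and 12.00 in GmbHLHm1 cells against 11.79, 11.84 and 11.84 in empty vector cells. GmbHLHm1 replicates 2 and 3 lay above all empty vector values and replicate 1 lay among them. The change was 0.14 ± 0.07 (SE; adjusted p = 0.246), and without GmbHLHm1 replicate 1 it was 0.21 and passed (adjusted p = 0.0395). The ratio of INO1 to PIS1 within an array was lower in GmbHLHm1 cells by 0.87 log2 units, and that of PIS1 to CHO1, which use the same CDP-diacylglycerol, was higher by 0.21. Neither ratio overlapped between the groups, but both were chosen after the values were seen. INO1 alone already had no overlap, as had 33.2% of all tested genes. The share of other gene pairs without overlap was not computed.

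CKI1 encodes choline kinase, the entry to the choline branch of the Kennedy pathway. It had 9.52, 9.62 and 9.65 in GmbHLHm1 cells against 9.63, 9.79 and 9.63 in empty vector cells. These values overlapped, with a change of -0.09 ± 0.06 (SE; adjusted p = 0.438). None of the 6 genes of both Kennedy branches passed the test, and the smallest p belonged to ECT1, for the second enzyme of the ethanolamine branch, with a change of -0.08 ± 0.05 (SE; adjusted p = 0.290).

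None of the 10 regulators listed for this control passed the test, beside 12.1% of all tested genes. The arrays read RNA, so the activity and location of these proteins were not tested. OPI1 had 9.10, 9.18 and 9.13 in GmbHLHm1 cells against 9.09, 9.20 and 9.12 in empty vector cells, nearly the same values, with a change of -0.0027 ± 0.05 (SE; adjusted p = 0.981) and a 95% interval of -0.12 to 0.11. INO2, the factor that carries the activating domain, had 8.76, 9.05 and 8.97 in GmbHLHm1 cells against 8.95, 9.02 and 9.00 in empty vector cells. Its groups overlapped (-0.06 ± 0.08, SE; adjusted p = 0.667). INO4, its partner, had 9.71, 9.64 and 9.50 in GmbHLHm1 cells against 9.73, 9.79 and 9.70 in empty vector cells. The highest GmbHLHm1 value lay just above the lowest empty vector value, with a change of -0.12 ± 0.06 (SE; adjusted p = 0.280). The list of 10 regulators also held SCS2, SIN3, RPD3, UME6, SNF1, RPN4 and INO80, and its median change was 0.02. INO80, for a chromatin remodeller named after its inositol phenotype, had the smallest p, with a change of 0.13 ± 0.04 (SE; adjusted p = 0.101).

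For the 7 uncalled genes, every 95% interval lay within 1.5-fold in either direction. The widest was that of HNM1, at a fold of 0.891 to 1.21. The median SD of the 10 genes was 0.08 in GmbHLHm1 cells and 0.05 in empty vector cells, beside 0.09 and 0.05 for all tested genes.

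Among the GmbHLHm1 arrays, replicate 1 gave the lowest value for 9 of the 10 genes, all but ITR1, beside 31.7% of all tested genes. The same array received the lowest weight, 0.347, when arrays were weighted by their fit. Without it INO1 still fell, by 0.60 (adjusted p = 0.0109), CHO2 rose by 0.33 (adjusted p = 0.0139) and OPI3 fell by 0.17 (adjusted p = 0.0438). With PIS1 added, 4 of the 10 genes then passed. Without any 1 empty vector array, 1 of the 10 passed, and without GmbHLHm1 replicate 3 it was 2.

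**Figure D3:**
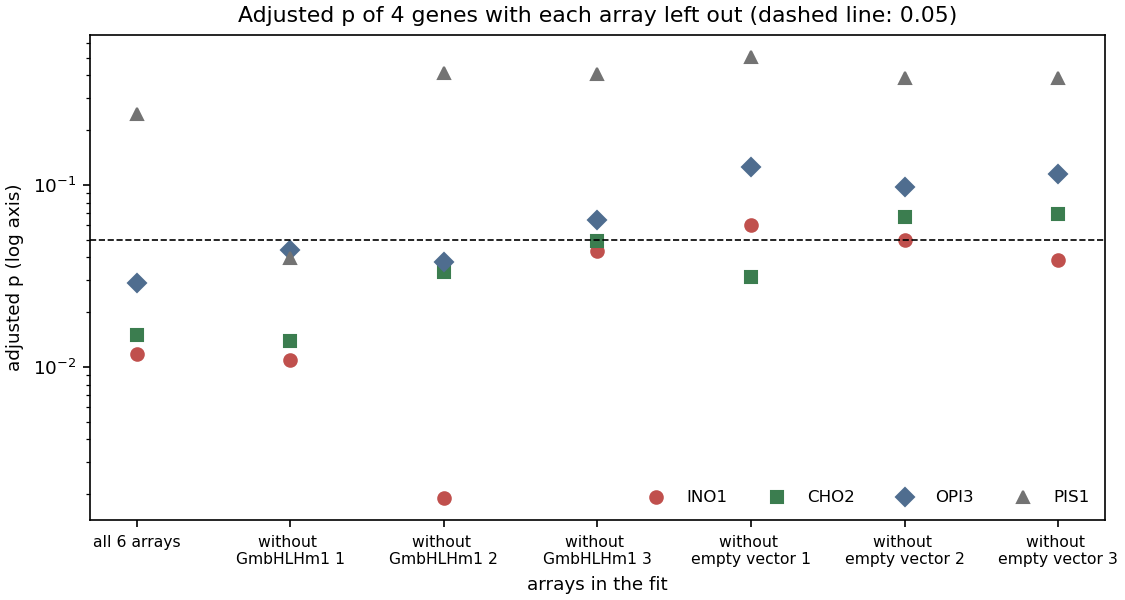
Adjusted p (log axis) of INO1, CHO2, OPI3 and PIS1 with all 6 arrays and with each array left out; the dashed line marks 0.05. INO1 lies above the line without empty vector replicate 1 (0.0599) and at it without empty vector replicate 2, CHO2 lies above it without empty vector replicate 2 or 3, OPI3 without any empty vector array or GmbHLHm1 replicate 3, and PIS1 lies below it only without GmbHLHm1 replicate 1 (0.0395).

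The genes whose profiles over the 6 arrays were most like that of INO1 were NCA3, MMP1, YRO2, CRC1 and SED1. The measure was the root mean square difference between profiles centred on their own means, which includes the group difference. It was 0.06 for NCA3, 0.07 for MMP1, YRO2 and CRC1 and 0.10 log2 units for SED1, against a median of 0.41 over 5448 genes. NCA3 encodes a protein of the SUN family, MMP1 an S-methylmethionine permease, CRC1 the mitochondrial carnitine carrier and SED1 a cell wall protein. The closest of the other 9 phospholipid genes stood at 0.30. The measure depends on the size of change, and a gene level over all 6 arrays would stand at 0.40. Since the other 9 changed less than INO1, the measure cannot tell whether they varied along with it. Their log2 changes were -0.76 for NCA3, -0.71 for MMP1, -0.77 for YRO2, -0.65 for CRC1 and -0.74 for SED1, each called lower. Falls of this size follow from picking profiles near that of INO1 and are not a separate result.

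The wider lipid network was described by 11 lists that together hold 113 tested genes, including the 10 above. Of these 113, 15 rose and 5 fell, 17.7% beside 12.1% of all genes, and the median change was 0.02. Without the 10 phospholipid genes 14 rose and 3 fell of 103 (16.5%). Median centring gave 11 higher and 6 lower over the 113, and quantile normalization 13 and 7. Of the 20 called genes 3, GIT1, GDE1 and IPT1, kept the call with each array left out, and the other 17 lost it in at least 1 of these fits.

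**Figure D4:**
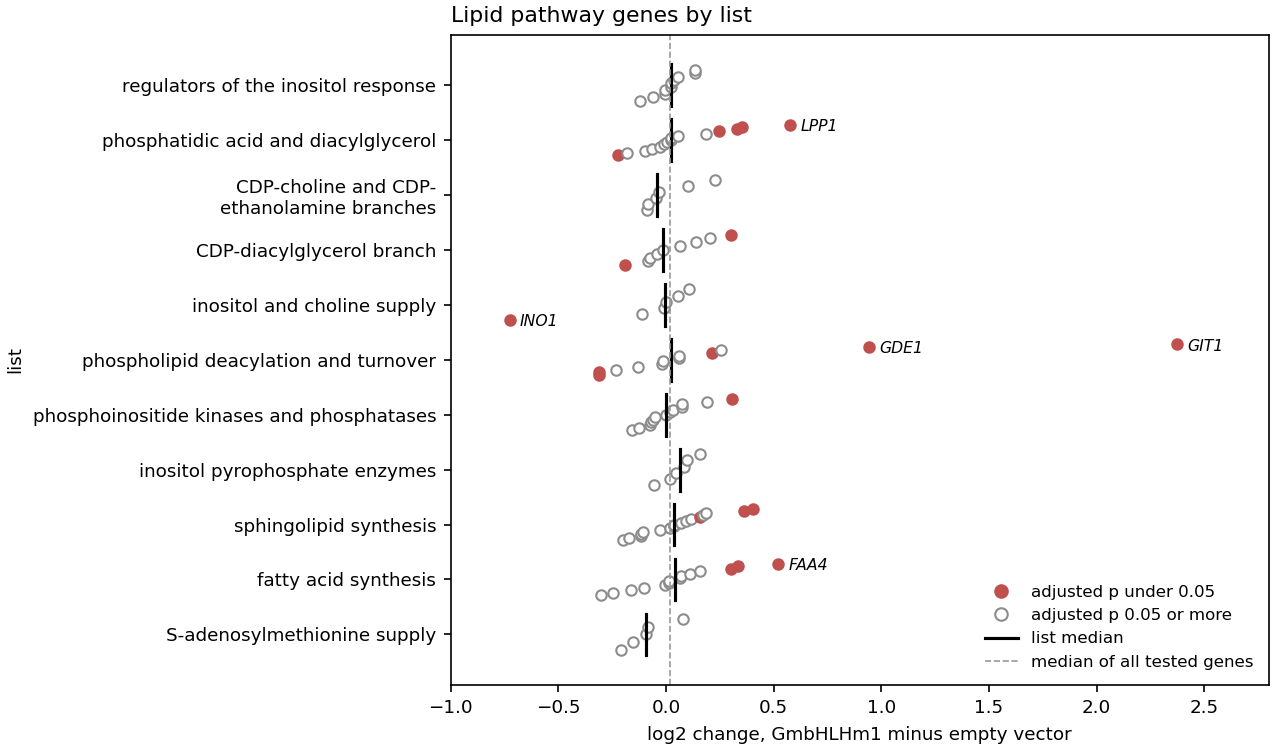
Log2 change of each tested gene of the 11 lists; filled points passed the test, black bars are list medians and the dashed line is the median of all tested genes (0.02). INO1 is the lowest point (-0.73), GIT1 (2.37) and GDE1 (0.94) are the highest, and the list medians lie between -0.09 and 0.06.

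Genes for breaking phospholipids down and taking up the products held the widest range. Of 12 tested, 3 rose and 2 fell (41.7% called, beside 12.1% of all genes), with a median change of 0.02. Without any 1 empty vector array 2 of the 12 were called, both higher. GIT1 encodes the permease for glycerophosphoinositol, through which cells can regain inositol and phosphate. It had 10.60, 11.25 and 10.83 in GmbHLHm1 cells against 8.51, 8.43 and 8.62 in empty vector cells. It rose by 2.37 ± 0.15 (SE) on the log2 scale, a fold of 5.18 (adjusted p = 0.000171).

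GDE1 encodes a glycerophosphodiesterase that releases choline from glycerophosphocholine. It had 10.58, 10.97 and 10.51 in GmbHLHm1 cells against 9.78, 9.68 and 9.76 in empty vector cells, and rose by 0.94 ± 0.12 (SE; adjusted p = 0.00301). These genes also belong to the phosphate response. The phospholipase B genes PLB1 and PLB3, whose products strip both fatty acids from phospholipids, moved the other way. PLB1 fell by 0.31 ± 0.06 (SE; adjusted p = 0.0231) and PLB3 by 0.31 ± 0.07 (SE; adjusted p = 0.0263). Both lost the call without any 1 empty vector array or GmbHLHm1 replicate 3; the highest adjusted p was 0.0983 for PLB1 and 0.112 for PLB3. The third gene that rose, PLC1 for the phosphoinositide-specific phospholipase C, is outside the rule for named genes and was named after its value was seen (0.21 ± 0.05, SE; adjusted p = 0.0403). It kept the call only without GmbHLHm1 replicate 3, and leaving out any other array gave an adjusted p as high as 0.152. It was also lost under quantile normalization (0.0535), median centring (0.0613) and array weights (0.0542), so that 2 genes of this list rose under either scaling.

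Of 15 genes that make or use phosphatidic acid and diacylglycerol, 4 rose and 1 fell (33.3% called, beside 12.1% of all genes), with a median change of 0.02. With 1 array left out, between 0 and 4 of them were called, and none without empty vector replicate 1 or 3. LPP1 and DPP1 both encode membrane phosphatases of phosphatidic acid. LPP1 had 9.42, 9.81 and 9.78 in GmbHLHm1 cells against 8.98, 9.19 and 9.10 in empty vector cells, and rose by 0.58 ± 0.11 (SE; adjusted p = 0.0191). DPP1 had 12.58, 12.69 and 12.62 in GmbHLHm1 cells against 12.83, 12.92 and 12.80 in empty vector cells, and fell by 0.22 ± 0.05 (SE; adjusted p = 0.0389). LPP1 lost the call without GmbHLHm1 replicate 3 and without empty vector replicate 1 or 3 (adjusted p up to 0.0888), and DPP1 kept it only without GmbHLHm1 replicate 2 (up to 0.137 otherwise).

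SLC1, for the acyltransferase that forms phosphatidic acid, rose by 0.35 ± 0.09 (SE; adjusted p = 0.0449). Its call was lost under median centring (0.0607), under quantile normalization (0.0687) and without any 1 array but GmbHLHm1 replicate 1 (up to 0.148). PAH1, for the phosphatidate phosphatase that makes diacylglycerol, and AYR1, for acyl-dihydroxyacetone phosphate reductase, also rose and were named after their values were seen. PAH1 had 11.02, 11.02 and 11.06 in GmbHLHm1 cells against 10.79, 10.76 and 10.82 in empty vector cells, a change of 0.25 ± 0.04 (SE; adjusted p = 0.0131), with an adjusted p of up to 0.0679 without any 1 empty vector array. AYR1 had a change of 0.33 ± 0.08 (SE; adjusted p = 0.0327), or up to 0.131 without any 1 empty vector array or GmbHLHm1 replicate 3.

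Among lipids that carry inositol, 3 of 17 sphingolipid genes rose and none fell on the deposited scale (17.6% called, beside 12.1% of all genes), with a median change of 0.04. Quantile normalization gave 3 higher and 2 lower, median centring 2 higher and 1 lower, and the trended robust prior 4 higher and 2 lower. The genes lower in these fits, named after their values were seen, were LAC1, for a ceramide synthase subunit (-0.22, adjusted p = 0.0400 after quantile normalization), and SCS7, for a fatty acid hydroxylase (-0.18, adjusted p = 0.0400 after quantile normalization); median centring called LAC1 alone. SUR1 encodes a subunit of the enzyme that adds mannose to inositol phosphoceramide, and IPT1 the enzyme that adds the next inositol phosphate. IPT1 had 10.61, 10.60 and 10.73 in GmbHLHm1 cells against 10.26, 10.32 and 10.28 in empty vector cells, and rose by 0.36 ± 0.05 (SE; adjusted p = 0.00610, up to 0.0402 with any 1 array left out). SUR1 rose by 0.41 ± 0.08 (SE; adjusted p = 0.0187, up to 0.0760 without any 1 empty vector array). The third, SUR2 for the sphinganine hydroxylase, named after its value was seen, had a change of 0.16 ± 0.04 (SE; adjusted p = 0.0485). It passed in none of the fits that left out 1 array (up to 0.167), nor under median centring (0.0963) or quantile normalization (0.0607).

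Of 13 phosphoinositide kinase and phosphatase genes 1 rose and none fell (7.69% called, beside 12.1% of all genes), with a median change of 0.0012. It was SAC1, for the phosphatase of phosphatidylinositol 4-phosphate, with 9.29, 9.29 and 9.41 in GmbHLHm1 cells against 9.00, 9.07 and 9.00 in empty vector cells. SAC1 rose by 0.31 ± 0.05 (SE; adjusted p = 0.0116), and the call was lost without empty vector replicate 1 or 3 (up to 0.0643). None of the 6 inositol pyrophosphate genes passed; DDP1, for a diphosphoinositol polyphosphate hydrolase, had the smallest p, with a change of 0.16 ± 0.05 (SE; adjusted p = 0.0757).

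Of 14 fatty acid genes 3 rose and none fell with all 6 arrays (21.4% called, beside 12.1% of all genes), with a median change of 0.04. Which genes were called depended on the arrays kept. Without GmbHLHm1 replicate 3 no rise was called and 2 falls were, ACS2 (-0.40, adjusted p = 0.0137) and ELO3 (-0.39, adjusted p = 0.0327). They encode an acetyl-CoA synthetase and a fatty acid elongase, and were lower but uncalled with all 6 arrays (-0.30 and -0.25). The 3 genes that rose stayed higher without that array, by 0.50 (FAA4), 0.30 (FAS1) and 0.27 (FAS2). None of the 14 was called without empty vector replicate 1 or 3. Without GmbHLHm1 replicate 2, 2 rose and 1, FAA1, fell (-0.23, adjusted p = 0.0493). ACS2, ELO3 and FAA1 were named after their values were seen. FAA4 encodes a long-chain acyl-CoA synthetase, and FAS1 and FAS2 encode the subunits of fatty acid synthase. FAA4 had 11.57, 11.95 and 11.81 in GmbHLHm1 cells against 11.19, 11.28 and 11.30 in empty vector cells, and rose by 0.52 ± 0.09 (SE; adjusted p = 0.0149). FAS1 rose by 0.33 ± 0.06 (SE; adjusted p = 0.0172). FAS2, named after its value was seen, rose by 0.30 ± 0.07 (SE; adjusted p = 0.0427). FAA4 lost the call without any 1 empty vector array or GmbHLHm1 replicate 3 (up to 0.0737), and FAS1 without GmbHLHm1 replicate 3 and without empty vector replicate 1 or 3 (up to 0.0760). FAS2 kept it only without GmbHLHm1 replicate 1 (up to 0.147 otherwise) and lost it under median centring (0.0645).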

How the data were processed

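RNA from 6 cultures, 3 GmbHLHm1 and 3 empty vector, was hybridised to Affymetrix Yeast Genome 2.0 arrays. The authors deposited linear intensities (5.00 to 28314) made with RMA, per the submitters' processing notes; the software version is not given in the sources used here. RMA forces the arrays to 1 common distribution, which hides any change shared by all transcripts. Values were converted to log2 here. Of 10928 probe sets, 5498 carried an S. cerevisiae gene identifier of assembly R64; of the 5449 genes, 47 had several probe sets, of which the brightest on average was used. The 95th percentile of 1746 probe sets with other gene identifiers was taken as an array's background level. The 2 groups were compared with limma 3.58.1 (R 4.3.3; lmFit, then eBayes) without a filter or a block, and within-array ratios with exact permutation tests (scipy 1.17.1). The fit was also run on simulated data with known changes, independent noise and the same SD in both groups. That setting does not cover arrays of unequal quality, so it does not vouch for calls that depend on 1 array. Standard errors and intervals are the moderated ones.

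The 10 genes and the lists were chosen with earlier results of these data known. The rule for named genes takes the 10 genes, INO2, INO4, MEP2 and URA3, for each list the called members with the 2 highest and 2 lowest changes (the smallest p where none passes), and the 5 profiles nearest to INO1. The older symbols RHR2, FEN1 and SUR4 were matched to GPP1, ELO2 and ELO3, and GPC1 is unnamed in the annotation used here. The alternatives were a replicate block, 2 scalings, array weights, leaving out dim probe sets, a fit without moderation, another with a trended robust prior, a fit of all probe sets, averaging a gene's probe sets, a threshold of 0.01 and leaving out each array. The search for motifs in promoters that had been planned was not run, and no sequences are shown.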

Additional observations from a re-analysis of the deposited data

How the results depend on the processing

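The direction of INO1, CHO2 and OPI3 was the same in all alternatives run. The count of called genes among the 10, which was 3, became 1 with a replicate block, 1 without moderation, 2 with all probe sets, where OPI3 lost its call (0.108), and 0 at a threshold of 0.01, where 243 of all genes passed. INO1 was the one kept with the block (adjusted p = 0.0244; CHO2 0.0592, OPI3 0.0925), and OPI3 the one kept without moderation (INO1 0.0903, CHO2 0.0612). The 659 genes called overall became 427 with the replicate block, 284 without moderation and 349 with all probe sets. The 20 called genes of the lists became 11 with the block, 6 without moderation, 10 with all probe sets and 3 at a threshold of 0.01. With 1 array left out, these counts ran from 1 to 4 (of the 10), 251 to 723 (all genes) and 4 to 21 (lists). The replicate numbers were not treated as pairs, since arrays of the same number did not deviate together (r across genes of -0.07, -0.08 and 0.14). Changes near 0 switched sign with 1 array left out: HNM1 ran from -0.052 to 0.119, OPI1 from -0.026 to 0.027 (0.017 without GmbHLHm1 replicate 1 and 0.00085 without GmbHLHm1 replicate 3) and INO2 from -0.123 to 0.020. The cause of these shifts was not tested.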

Other observations

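The genes next to the 10 phospholipid genes on the chromosome, by the order of the R64 gene table, were looked at after the results were seen. Of 20 such neighbours 19 were tested, and their changes lay between -0.21 and 0.15. Beside a share of 12.1% called over all tested genes, 2 of the 19 were called, and whether their position matters was not tested. They were AIM17, next to OPI1 (-0.21 ± 0.05, SE; adjusted p = 0.0350), and PDC5, a pyruvate decarboxylase gene next to CKI1 (-0.21 ± 0.05, SE; adjusted p = 0.0400). The neighbours of INO1, VPS35 and SNA3, had changes of -0.09 ± 0.05 and -0.15 ± 0.04 (SE), with adjusted p of 0.306 and 0.0666.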
